A study of Mus musculus with 2 samples.

Results

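The T-box transcription factors and the Ripply corepressors that bind them were followed in mouse ureters cultured without WNT secretion. The genes were 8 T-box factors (*Tbx1*, *Tbx2*, *Tbx3*, *Tbx4*, *Tbx5*, *Tbx15*, *Tbx18* and *Tbx20*) and 2 corepressors (*Ripply1* and *Ripply3*), taken by gene name from the array annotation with all of their probes. They comprised 10 of the 29924 gene names and 12 of the 39429 probes on the array. The family was selected on the control signals and the IWP-2/control ratios of these same samples, so its ratios are given as a description, without a test.

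Ureters of newborn (P0) NMRI wildtype mice were cultured for 18 h on transwell filters. They received either 5 µM IWP-2 or the solvent DMSO, called control here. IWP-2 inhibits PORCN, the enzyme that attaches the lipid WNT proteins need to leave the cell. Each condition was one pool of several ureters from female mice and another from male mice, and no animal of any group carried a mutant allele. RNA of the control and the IWP-2-treated pool of one sex was hybridised to the same two-colour array, 1 array for each sex, so that n was 2 ratios. In the female pools IWP-2 was read in the red channel and in the male pools in the green channel, so sex, dye orientation and replicate cannot be told apart.

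T-box factors share a DNA-binding domain and act as activators or repressors during the patterning of mesenchyme. TBX2 and TBX3 are repressors that act downstream of canonical WNT signaling in the fetal ureteric mesenchyme, and *Tbx18* marks this mesenchyme from an early stage. TBX4 and TBX5 are activators best known from limb and lung mesenchyme, where they act on *Fgf10*. Ripply proteins contact the T-box domain and bring in Groucho/TLE corepressors, which turns a bound T-box factor into a repressor. *Tbx2* lies next to *Tbx4*, and *Tbx3* next to *Tbx5*, as a result of an ancient gene duplication.

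*Axin2*, a feedback target of canonical WNT signaling and the read-out of the treatment, gave 181 in control female ureters and 42.2 after IWP-2. In the male pools it was 154 and 46.7. Signals are normalised fluorescence in arbitrary units and compare one probe across conditions, not one gene with another. The mean log2 ratio of *Axin2* was -1.91 (adjusted p = 0.000824, limma). Of 10 other settings in which *Axin2* was tested, 8 kept this call, and the highest adjusted p was 0.624 (limma). With the mean over all probes, *Axin2* fell below the signal minimum and was not tested. A second *Axin2* probe was close to the floor of 15, with 20.2 and 15 in the female and 17.3 and 15 in the male pools. Of the 6 smooth muscle, 6 urothelial and 5 lamina propria markers, each was well above background in all 4 channels. Of 5 kidney markers 3 (*Umod*, *Nphs1* and *Slc12a1*) were at the floor of 15 in all channels. The other kidney markers, of the proximal tubule, were dim and brighter in the male pools, where *Lrp2* gave 61.4 and 59.4 and *Slc34a1* 23.1 and 29.5. In the female pools *Lrp2* gave 22.8 and 15, and *Slc34a1* was at the floor. In these bulk samples, fewer cells of a type and less RNA per cell cannot be told apart.

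The probes behind the main results are shown by their first 30 of 60 bases as listed in the array files, 5′ to 3′, with no letter capitalised because no position is singled out. They are given so that each signal can be tied to the transcript stretch it reports. The gene part (exon or untranslated region) was not analysed here. Positions of the whole probes are in mm9.
Tbx4 (chr11:85729510-85729569, plus strand): gacaggcggtatgaaacttcaagtgttttt
Ripply1 (chrX:136314220-136314278, minus strand): tgacccacactcggcctgtccaaattgaag
Tbx2 (chr11:85655391-85655450, plus strand): tttttgctccagagggagaacgaagcgaga
Tbx3 (chr5:120134511-120134570, plus strand): ctttatggtgttttggattggtgtactgag
Tbx18 (chr9:87599514-87599573, minus strand): gtgcagaagctggttaaatcttagtatatt

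*Tbx4* had the lowest ratio of the 10 genes. In the female pools the control gave 228 and IWP-2 49.3, and in the male pools 164 and 49.2. Both control values lay above both treated values, and all 4 channels were well above background. The log2 ratio was -2.21 in the female and -1.73 in the male pools (mean -1.97 ± 0.34, SD, n = 2), that is a signal 4.63-fold and 3.33-fold lower with IWP-2. All 4 spots of the probe lay between -2.25 and -2.17 on the first array, and all 4 between -1.78 and -1.67 on the second. In each array it was the fifth lowest ratio among the 14051 genes with control signals above 100.

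**Figure D1:**
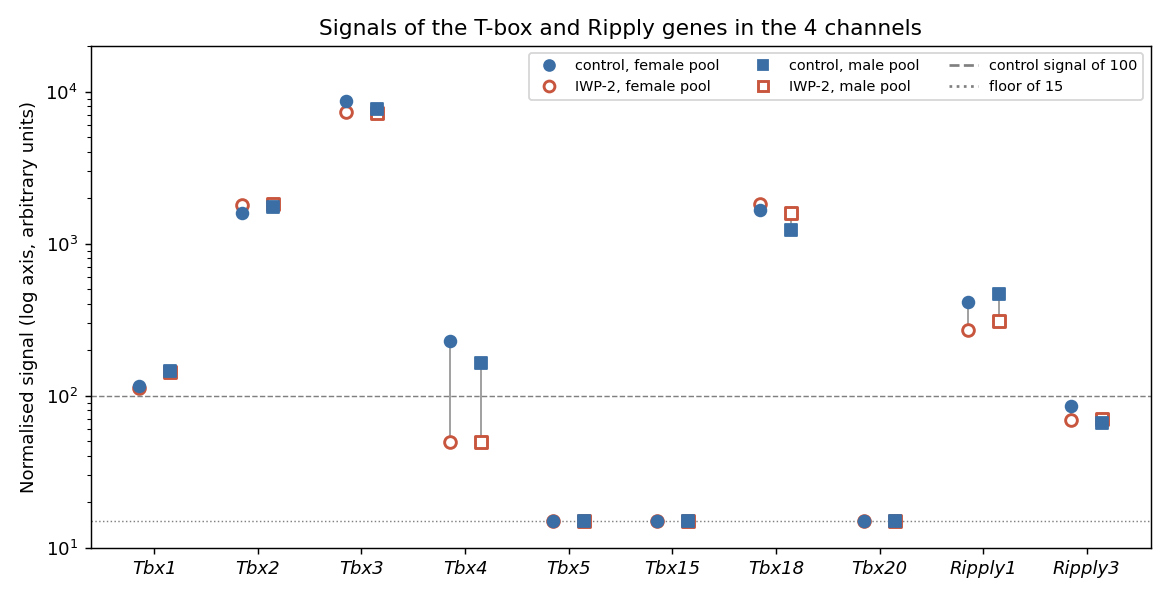
Normalised signal (log axis, arbitrary units) of the 10 genes in the 4 channels, one probe per gene. Filled symbols are control and open symbols IWP-2, circles the female and squares the male pools; a line joins the channels of one array. *Tbx4* drops from 228 and 164 to 49.3 and 49.2, *Ripply1* shifts less, and *Tbx5*, *Tbx15* and *Tbx20* sit at the floor of 15.

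*Ripply1*, known as a partner of TBX6 in the somites, was the other gene that was lower past the filter. Its signal was 415 in the control and 271 with IWP-2 in the female pools. In the male pools it was 466 and 310. Both treated values lay below both control values. The log2 ratios were -0.61 and -0.59 (mean -0.60 ± 0.02, SD, n = 2), with the 8 spots of both arrays between -0.67 and -0.56.

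*Ripply3*, a corepressor known to bind TBX1 in the pharyngeal region, was dim. Its signal was 85.2 in the control and 68.9 with IWP-2 in the female pools, and 66.4 and 70.1 in the male pools. The conditions overlapped. Its log2 ratios were -0.31 and 0.08, and all 4 spots followed the sign of their array in each case. Neither control signal reached 100.

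A filter on a control signal above 100 and a change of at least 1.5-fold in both arrays, adapted from the methods of the study, was passed by 2 of the 10 genes, *Tbx4* and *Ripply1*, both lower. Among all 14051 genes with such control signals, 51 were lower past it (0.363%) and 11 higher (0.0783%). Because the ratios had been seen when the genes were chosen, nothing is read from the comparison of these shares. Just inside the threshold lay *Ripply1*, 1.53-fold and 1.51-fold lower, and the nearest outside it were *Tbx18*, with log2 ratios of 0.12 and 0.37, and *Tbx3*. The call for *Ripply1* ended under normexp background correction, where it was 1.52-fold and 1.47-fold lower. It also ended without the intensity-dependent (loess) correction and under median centring, where its smaller change was 1.499-fold and 1.46-fold, and it could not pass a 2-fold minimum. That for *Tbx4* ended only when the control minimum was set to 200, since its male control signal was 164.

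**Figure D2:**
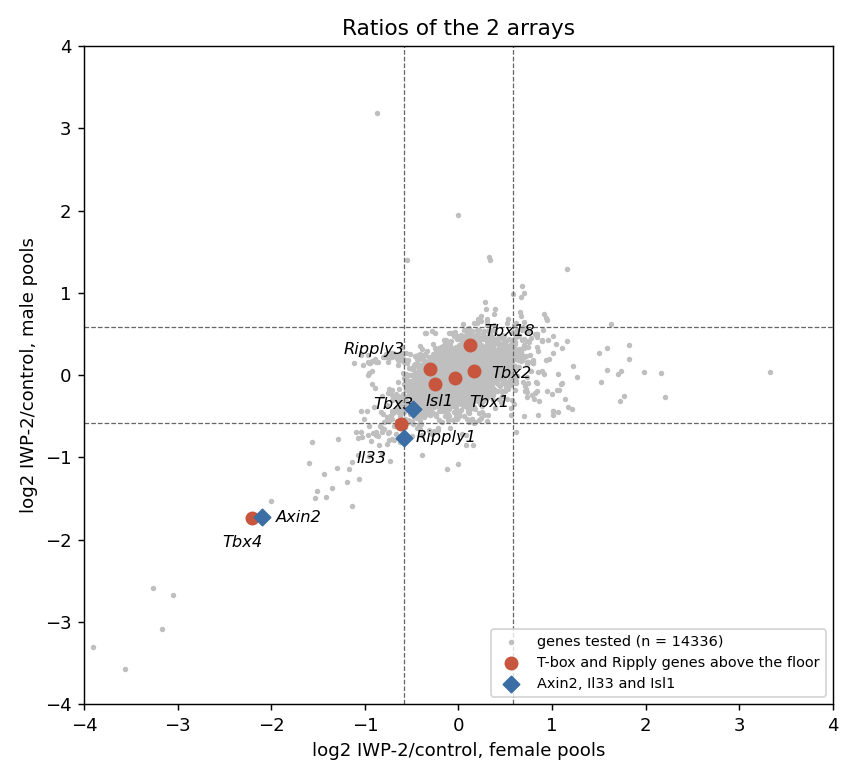
log2 IWP-2/control of the female pools (x axis) against the male pools (y axis). Grey points are the 14336 genes tested, red points the T-box and Ripply genes above the floor, blue diamonds *Axin2*, *Il33* and *Isl1*, and dashed lines a 1.5-fold change. *Tbx4* (-2.21, -1.73) lies beside *Axin2* (-2.10, -1.72), *Ripply1* lies at the threshold and the other T-box genes lie within the main cloud.

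The T-box factors of the fetal ureteric mesenchyme had smaller ratios. *Tbx3* gave 8744 in the control and 7332 with IWP-2 in the female pools, and 7746 and 7214 in the male pools. Both treated values were the lower ones, with log2 ratios of -0.25 and -0.10 (mean -0.18 ± 0.11, SD, n = 2). *Tbx2* gave 1596 and 1785 in the female pools and 1746 and 1813 in the male pools. Both treated values were the higher ones, and the log2 ratios were 0.16 and 0.05 (mean 0.11 ± 0.08, SD, n = 2). *Tbx18* gave 1663 and 1811 in the female pools and 1234 and 1596 in the male pools. Its log2 ratios of 0.12 and 0.37 (mean 0.25 ± 0.18, SD, n = 2) had the same sign, but the male treated value lay below the female control value.

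To set these sizes in proportion, the median absolute mean log2 ratio of the 14336 genes tested was 0.06 and its 90th percentile 0.22, and the median absolute difference between the arrays was 0.10. The mean ratio of *Tbx3* thus lay inside this 90th percentile and that of *Tbx18* just outside it. None of the 3 changed by 1.5-fold in either array. For the neighbours *Tbx2* and *Tbx4*, the log2 ratios of the same 2 arrays were 0.16 and 0.05 for *Tbx2* beside -2.21 and -1.73 for *Tbx4*.

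*Tbx1*, best known from the pharyngeal apparatus, was measured near the minimum. Its signals were 115 in the control and 112 with IWP-2 in the female pools, and 146 and 143 in the male pools. The log2 ratios were -0.04 and -0.03, and 3 of 4 spots on each array were below 0. Under median centring the mean ratio turned to 0.0032, so no direction is given for it.

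*Tbx5*, the neighbour of *Tbx3*, and *Tbx15*, a factor of dermal and skeletal mesenchyme, were not well above background in any channel, and no ratio was taken. *Tbx20*, a factor of the developing heart, had 3 probes for 3 transcript records. Of these 2 were not well above background in any channel. The third was well above background on most spots of all 4 channels, but its normalised signals stayed below the floor of 15. They were 5.83 in the control and 9.52 with IWP-2 in the female pools. In the male pools they were 5.94 and 8.07. All 7 usable spots of this probe had ratios above 0. At such signals, background correction decides the ratio, and no direction is given.

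**Figure D3:**
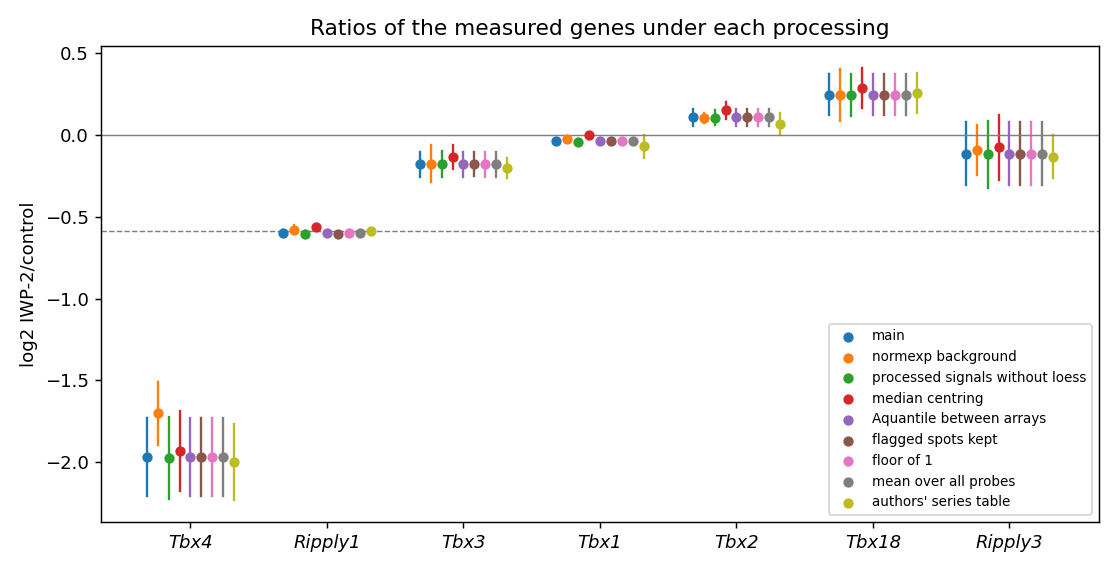
log2 IWP-2/control of the 7 genes above the floor under each processing of the signals. Points are means of the 2 arrays, vertical lines run from one array's value to the other's, and the dashed line marks a 1.5-fold lower signal. *Tbx4* is at -1.70 in the mean under normexp and at -1.93 or lower in the others, *Ripply1* straddles the dashed line, and the lines of *Ripply3* cross 0.

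The other genes of the T-box and Ripply families gave little signal. Of 10 such genes, 6 (*T*, *Tbr1*, *Eomes*, *Tbx19*, *Tbx21* and *Ripply2*) were at the floor in all channels. *Tbx6*, the presomitic partner of Ripply proteins, was dim, with 67.4 and 70.1 in the female and 57.2 and 66.1 in the male pools. *Tbx10* (18.4 and 19.0, then 24.7 and 21.6) and *Tbx22* (16.6 and 15, then 22.6 and 25.0) lay just above the floor. Only *Mga*, which joins a T-box domain to a MAX-binding domain, had a signal above 100. It gave 582 and 605 in the female and 527 and 541 in the male pools, with a mean log2 ratio of 0.05 (adjusted p = 0.938, limma). With 1 gene tested, 0 were called, and 0 at an unadjusted p under 0.05. Over all genes, limma called 127 lower (0.886%) and 52 higher (0.363%) of 14336, and at an unadjusted p under 0.05 it placed 952 lower (6.64%) and 899 higher (6.27%).

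Genes of the Groucho family, histone deacetylases and *Ncor1*, together called the corepressors here, were well above background in all 4 channels. Whether each of them acts with Ripply or T-box proteins was not examined. The list held the Groucho genes *Tle1*, *Tle2*, *Tle3*, *Tle4*, *Tle6* and *Aes* (*Tle5*), the deacetylases *Hdac1*, *Hdac2* and *Hdac3*, and *Ncor1*. Of these 10 genes, 0 were called by limma in either direction, and 0 had an unadjusted p under 0.05. Their median log2 ratio was 0.01, against -0.0060 for all genes tested. The means ran from -0.15 for *Tle3* (adjusted p = 0.432, limma) to 0.18 for *Hdac2* (adjusted p = 0.421, limma).

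Of 14 factors known to act with or upstream of T-box factors, 9 were tested and 1 fell. This was *Isl1*, a LIM homeodomain factor that acts upstream of the hindlimb programme. Its signal was 123 in the control and 87.9 with IWP-2 in the female pools, and 87.6 and 65.6 in the male pools. Within each array IWP-2 was lower, but the conditions overlapped, since the female treated value was above the male control value. The mean log2 ratio was -0.45 ± 0.07 (SE; adjusted p = 0.0393, limma). Of 11 other settings, 6 kept the call, and the adjusted p ran from 0.033 to 0.888. The nearest by size, *Hand2*, another limb and heart factor, had a mean log2 ratio of -0.26 that did not pass (adjusted p = 0.16, limma). *Gata4*, *Nkx2-5*, *Pax3* and *Pax9* were not well above background in any channel, and *Sall4* was below the minimum of the test. The median of the 9 was -0.09, and 2 of them, both lower, had an unadjusted p under 0.05 in limma. Among all genes tested the shares were 0.886% called lower and 0.363% called higher. They were 6.64% and 6.27% at an unadjusted p under 0.05 in limma. These factors were listed with earlier results of these data known, so nothing is read from the counts.

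Of 17 genes reported elsewhere as T-box targets, 10 were tested and 1 fell. This was *Il33*, which encodes a cytokine of the interleukin-1 family. Its signal was 4200 in the control and 2802 with IWP-2 in the female pools. In the male pools it was 4827 and 2841. Both treated values lay below both control values. The mean log2 ratio was -0.67 ± 0.08 (SE; adjusted p = 0.0157, limma), and 8 of 11 other settings kept the call, with an adjusted p between 0.00238 and 0.707. With log2 ratios of -0.58 and -0.76 it missed the 1.5-fold filter in the female pools. *Fgf10*, the growth factor gene that TBX4 and TBX5 activate in limb and lung, had log2 ratios of 0.21 and 0.38 and did not pass (adjusted p = 0.148, limma). *Frzb*, which encodes a secreted WNT antagonist, had -0.20 and -0.29 and did not pass either (adjusted p = 0.183, limma). The means of the remaining tested genes lay between these 2. *Fgf8*, *Mesp2*, *Nppa*, *Wnt2*, *Wnt2b*, *Bmp10* and *Cdkn2a* were too dim to be tested. The median of the 10 was 0.03, and 3 of them, 2 lower and 1 higher, had an unadjusted p under 0.05 in limma. Of all genes tested, limma called 0.886% lower and 0.363% higher. At an unadjusted p under 0.05 it placed 6.64% lower and 6.27% higher. Because the targets were listed with earlier results of these data known, nothing is read from these counts.

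**Figure D4:**
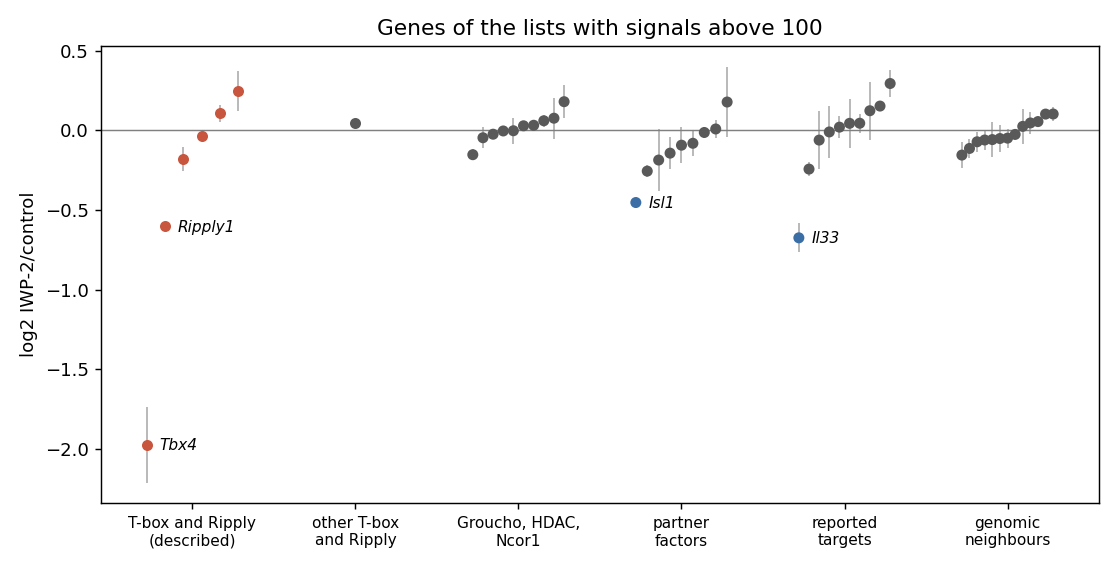
Mean log2 IWP-2/control of each tested gene (condition mean over 100 in the control or with IWP-2), by list. Vertical lines run from one array's value to the other's; red marks the described T-box and Ripply genes, blue the genes called by limma. *Isl1* and *Il33* are the called genes outside the described set, and the corepressors and genomic neighbours stay close to 0.

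Of 5 lamina propria markers, of the fibroblast layer under the urothelium, 1 fell by limma. Log2 ratios below 0 in both arrays were found for 3 of the 5, against 29.1% of all genes tested. The study listed these 5 among candidates from its inhibitor arrays, which include the present ones, so nothing is read from this comparison. *Aldh1a2*, which encodes a retinoic acid-synthesising enzyme, fell with a mean log2 ratio of -0.63 (adjusted p = 0.028, limma), a call that 7 of 11 other settings kept. *Thy1* and *Car3* had means of -0.48 and -0.64 that did not pass (adjusted p = 0.0547 and 0.0778, limma), *Foxf1* had 0.37 and *Bmp4* 0.04. At an unadjusted p under 0.05, limma placed 3 of the 5 lower and 1 higher. The shares of all genes tested were 6.64% lower and 6.27% higher, and nothing is read from this either. The summed signal of the 5 was 28028 in the control and 22026 with IWP-2 in the female pools, and 21785 and 21550 in the male pools. That of the 6 smooth muscle markers was 68400 and 68457 in the female and 60379 and 69569 in the male pools, with 0 called by limma and 1, higher, at an unadjusted p under 0.05. That of the 6 urothelial markers was 71044 and 91136 in the female and 86511 and 91266 in the male pools, with 0 called by limma and 4, all higher, at an unadjusted p under 0.05. The brightest probes weigh most in such sums, which do not measure the amount of a cell type. Whether a shift between cell types took part in the ratio of any T-box or Ripply gene was not tested.

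The 5 protein-coding genes on each side of both gene pairs were examined, in the gene order of the GRCm38.p6 RefSeq annotation, which places no protein-coding gene between the pair in either case. Around *Tbx2* and *Tbx4* on chromosome 11 these were *Usp32*, *1700125H20Rik*, *Appbp2*, *Ppm1d* and *Bcas3* on one side and *Brip1*, *Ints2*, *Med13*, *Rnft1* and *Rps6kb1* on the other. Of these, 6 were tested and 0 called, with means from -0.11 (*Usp32*) to 0.10 (*Rps6kb1*). The next gene on the *Tbx4* side, *Brip1*, a DNA repair helicase, gave 66.7 and 71.8 in the female and 85.0 and 71.3 in the male pools. *Ints2*, also too dim to be tested, gave 48.4 and 65.3 in the female and 45.7 and 55.8 in the male pools. Its log2 ratios of 0.43 and 0.29 were above those of the tested neighbours. Around *Tbx3* and *Tbx5* on chromosome 5 the genes were *Fbxw8*, *Hrk*, *Rnft2*, *Spring1* and *Med13l*, then *Rbm19*, *Lhx5*, *Sdsl*, *Sds* and *Plbd2*. Of these, 7 were tested and 0 called, with means from -0.16 (*Rnft2*) to 0.05 (*Med13l*). Over both pairs 0 of 13 tested neighbours had an unadjusted p under 0.05 in limma, against 6.64% lower and 6.27% higher of all genes tested.

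Genes were also ranked by how close their 2 log2 ratios lay to those of *Tbx4*, as the straight-line distance over the 2 arrays among 14050 genes with control signals above 100. The nearest was *Axin2* at a distance of 0.11. It was followed by *Ptger2*, a receptor for prostaglandin E2, at 0.28 with ratios of -2.01 and -1.53. Then came *Wipf3* (0.72), *Gdpd2* (0.78) and *Moxd1* (0.83). The space around *Tbx4* was thus sparsely filled, and that around *Ripply1* was dense. The nearest to *Ripply1* were *Lhfp* (0.03), *Fgf18*, an FGF ligand (0.04), *Cux2*, a homeobox factor (0.05), *Col17a1*, a collagen of hemidesmosomes (0.05), and *Tfpi2*, a protease inhibitor (0.05). With 2 arrays this likeness is a description only.

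The 250 bases before the annotated start were read for the 5 of 10 genes in the RefSeq promoter table (GRCm38.p6). The sequences of the 2 genes that were lower are shown, with motif matches in capitals. *Tbx4* had no match.
Tbx4 (GRCm38.p6, chr11:85896515-85896764, plus strand): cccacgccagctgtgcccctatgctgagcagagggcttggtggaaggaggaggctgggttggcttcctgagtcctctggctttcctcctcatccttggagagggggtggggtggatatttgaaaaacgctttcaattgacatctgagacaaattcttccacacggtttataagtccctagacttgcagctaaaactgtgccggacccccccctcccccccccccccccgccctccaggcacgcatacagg
Ripply1 (GRCm38.p6, chrX:139782354-139782603, minus strand): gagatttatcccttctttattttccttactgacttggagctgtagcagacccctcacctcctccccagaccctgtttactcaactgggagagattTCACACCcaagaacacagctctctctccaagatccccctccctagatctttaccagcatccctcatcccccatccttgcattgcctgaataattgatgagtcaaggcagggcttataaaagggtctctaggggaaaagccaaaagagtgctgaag

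The letters CTTTGAA or CTTTGAT and CTTTGTA or CTTTGTT, forms of the site bound by TCF/LEF factors, were searched on both strands and occurred in 0 of the 6 promoters of these genes (*Tbx1* has 2), against 14.8% of 32851 promoters. The T-box half-site GGTGTGA was found once, on the opposite strand of the *Ripply1* promoter at bases 96 to 102. The share of all promoters with this half-site was 3.33%. The *Ripply1* window held 0 CpG dinucleotides and that of *Tbx4* 6, the median of all promoters. These matches describe letters in a short window and say nothing of binding by any factor.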

How the data were processed

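RNA of P0 ureter pools was hybridised to 2 two-colour Agilent arrays. Per the file headers, intensities were extracted with Feature Extraction 12.2.0.7 (10.7.3.1 per the labels), and the processed signals in the deposited files are background-subtracted and dye-normalized by the authors, with probes placed on mm9. The authors also deposited a table of signed fold changes (a score with 1 decimal), used only as an alternative.

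The members and lists were chosen with earlier results of these data known. Flagged spots (5235 and 5075) and 17263 control spots were left out. The processed signals were loess-corrected within each array in limma 3.58.1 (R 4.3.3). The usually 4 spots per probe were averaged, signals were raised to a floor of 15, and log2 IWP-2/control was taken with the sign of the dye-swapped array turned. A gene was represented by its brightest probe. A probe was well above background when more than 0.5 of its spots carried that mark. The 14336 genes whose control or IWP-2 mean exceeded 100 were tested against 0 by lmFit followed by eBayes, with p-values adjusted after Benjamini-Hochberg and a threshold of 0.05. The 2 ratios leave 1 residual degree of freedom per gene, so the number of arrays limits precision. The eBayes step combines the spread of each gene between the 2 pools with the spread shared across all genes tested. p-values and SE rest on this combined spread and cover these 2 pools of ureters only. The fit was tested on simulated data with 200 changed genes among 14336, and recovered 100% of changes of 1 and of 2 on the log2 scale. Of its calls, 1.48% were unchanged genes. The simulated noise had the same SD for every gene. Smaller changes, such as those of *Isl1*, *Il33* and *Aldh1a2*, were not simulated, so their recovery is not known. Named genes were each T-box and Ripply gene, listed genes that were called or not measured, the genomic neighbours, and the 5 genes nearest to *Tbx4* and to *Ripply1*. Other listed genes named for their role were chosen after their values were seen. Alternatives comprised normexp background correction, no loess, median centring, Aquantile, a floor of 1, flagged spots, the mean of all probes, other signal minima, a 2-fold change and single arrays. Protein sequences were not used here. Some listed genes are not reported here and were left out of the lists' counts.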

Additional observations from a re-analysis of the deposited data

Results flagged for a closer look

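Among 51 of the genes named in the text, each well above background in all 4 channels, 12 had log2 ratios of opposite sign in the female and male pools. These pools are also the 2 dye orientations. With 1 array on each side, the difference was not tested. For *Ripply3* the male minus female difference was 0.39 (-0.31 and 0.08). For *Tbx10* it was -0.25 and for *Tbx22* 0.29, both at signals of at most 25.0. Among the genomic neighbours it was -0.36 for *Brip1*, -0.22 for *2410131K14Rik* (*Spring1*), -0.22 for *Bcas3* and 0.17 for *Ppm1d*. It was 0.14 for *Med13l*, -0.13 for *Rbm19*, -0.12 for *Fbxw8* and -0.072 for *Plbd2*. For the lamina propria marker *Bmp4* it was 0.29. Outside this set, 4 of the 10 corepressors (*Hdac1*, *Ncor1*, *Tle2* and *Tle4*) also had opposite signs. Of all genes tested, 45.2% had opposite signs in the arrays. The set of 51 includes genes chosen for their ratios, so its share is not compared with this one.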

How the results depend on the processing

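Over the 8 alternatives that keep both arrays, the mean log2 ratio of *Tbx4* ran from -1.999 to -1.70 and that of *Ripply1* from -0.61 to -0.56. Single arrays gave -2.21 and -1.73 for *Tbx4* and -0.61 and -0.59 for *Ripply1*. The count of 2 past the filter fell to 1 (*Tbx4*) under normexp, without loess, under median centring and at a 2-fold change, and to 1 (*Ripply1*) at a control minimum of 200. With single arrays it was 2 in both cases (lowest 2, highest 2). The pairing of the 2 conditions on one array is part of each ratio. With no replicate block, when the 4 channels entered as separate samples, 8 genes were called lower and 0 higher (565 and 406 at an unadjusted p under 0.05), and 0 partner factors and 0 targets. Main counts of 127 lower and 52 higher of 14336 genes became 257 and 170 of 19789 under normexp. They became 50 and 17 of 13580 with the mean over all probes. Normexp added an offset of 50 to the signals, while the signal minimum of the test stayed at 100. Higher counts became 32 without loess and 85 under median centring. With no filter on signal, or with genes well above background in 1 condition, 0 were called in either direction by limma (1149 lower and 879 higher, and 1212 and 921, at an unadjusted p under 0.05), and 0 partners and 0 targets. Many genes at the floor, with a spread of 0, entered the first of these fits, and the cause was not tested. *Isl1* was also lost without loess (0 called, adjusted p = 0.0554 with limma) and with the mean over all probes (0 called, adjusted p = 0.072 with limma). Counts for the other family genes, the corepressors and the neighbours were 0 under each setting run. Signals under about 100 limit *Ripply3*, *Tbx6*, *Tbx10* and *Tbx22*, and signals at background limit *Tbx5*, *Tbx15* and *Tbx20*. The called gene *Isl1* was also dim, with a signal above 100 only in the female control.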
